A study of Mus musculus with 12 samples.

Results

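The genes described here are the drug-metabolising cytochrome P450s of mouse liver that were listed together with their electron donor: Cyp2b10, Cyp3a11, Cyp3a13, Cyp1a1, Cyp1a2, Cyp2c29, Cyp2c55, Cyp2e1, Cyp2a5 and Por. They were taken from a list of names drawn up with earlier results of these data known, and each was read from the probe set (the array's measuring unit for a transcript) that carried its symbol alone, taking the brightest where a gene had several. Of the 10 genes, 8 had such a probe set, among 19935 genes with one on the array. Cyp2a5 was measured only by a probe set shared with Cyp2a4, and Por, the P450 reductase, was not analysed here because no probe set was paired with it in the annotation used.

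Livers of ovariectomized C57BL/6 mice aged 3 months were measured on 12 Affymetrix Mouse Gene 1.0 ST arrays, 2 for each of 6 groups, in a study titled as one of estrogen, liver lipid and membrane receptor signaling. The first pair of groups was MOER mice, in which estrogen receptor alpha (ERalpha) is present at the membrane only, given PPT or oil. The second pair was ERKO mice, which lack ERalpha, given PPT or oil, and the last pair was wild-type (WT) mice given PPT or oil. PPT is a synthetic agonist selective for ERalpha, injected at 100 µg a day for 3 days after 1 week of recovery from surgery, and oil (0.1 mL) was its placebo. Removal of the ovaries, the source of most circulating estrogen, was common to all 6 groups. Each array held RNA pooled from 3 animals, so differences among animals within a pool are not visible, and nothing in the labels says which animals went into which pool: the p-values below measure the spread between arrays. Values are the deposited intensities on a linear scale. Differences and tests are on the scale of log2(intensity + 16), with limma fitted once over all 19119 probe sets that passed a filter on low signal, and p-values adjusted by Benjamini-Hochberg over all of them. A gene was called changed at an adjusted p under 0.05.

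Checks on the arrays preceded the comparisons. Esr1, which encodes ERalpha, had 124 ± 10 in MOER livers given PPT, 127 ± 0.93 in MOER livers given oil, 154 ± 11.3 in ERKO livers given PPT, 122 ± 5.62 in ERKO livers given oil, 317 ± 11.6 in WT livers given PPT and 356 ± 12.6 in WT livers given oil (SD, n = 2 arrays each). Under oil the difference from WT was -1.38 on the log2 scale in MOER livers (limma adjusted p = 1.06e-05) and -1.43 in ERKO livers (adjusted p = 1.43e-05), so the Esr1 signal separated both mutants from WT and did not tell them from each other (MOER minus ERKO 0.05 log2, adjusted p = 0.816). The 16 measured hepatocyte markers were all above the 40th percentile of signal in every group. Both MOER oil arrays carried digestive enzyme transcripts of the pancreas: 15 acinar markers summed to 41075 and 51347 there, against 618 to 911 on the other 10 arrays, and Cpb1, a pancreatic carboxypeptidase, averaged 12634 there. The ERKO PPT arrays carried the lung transcripts Sftpc (1822 ± 115) and Scgb1a1 (1148 ± 19.9), whose means in the other groups were at most 20.5 and 7.93. The other lung genes listed did not stand out in this way. Sftpb averaged 40.3 ± 16.7 there, against means of 33.8 to 44.8 in the other groups. Sftpa1 averaged 214 ± 33.3, against means of 92.6 to 184. The 2 ERKO oil arrays lay further apart than other pairs, with a correlation of 0.9815 and 162 probe sets over 2-fold apart, against correlations of 0.9941 to 0.9965 and 2 to 21 such probe sets. Every MOER difference from oil rests on the arrays with pancreatic transcripts and every ERKO response on those with lung transcripts, and their part in the results was not tested.

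Cytochrome P450s of families 1 to 3 are haem enzymes of the endoplasmic reticulum that oxidise drugs, toxins and steroids, and they take their electrons from NADPH through the reductase Por, with cytochrome b5 as a second donor. In hepatocytes their transcription is set largely by ligand-activated receptors: CAR (Nr1i3) and PXR (Nr1i2), which pair with RXR on the Cyp2b, Cyp2c and Cyp3a genes, and AhR, which pairs with Arnt on the Cyp1a genes. Many of these enzymes are most abundant around the central vein, and several differ between the sexes under growth hormone and sex steroids.

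The 170 bases upstream of the annotated starts are shown for 5 members, because these genes moved furthest or moved differently between genotypes below, and the sequence near the start is where the general transcription machinery sits. The sequences are from RefSeq (build GRCm38.p6), read 5′ to 3′ on the gene's strand: Cyp2b10 at chr7:25897488-25897657 (plus strand), Cyp1a2 at chr9:57683656-57683825 (minus), Cyp2e1 at chr7:140763649-140763818 (plus), Cyp2c55 at chr19:39006849-39007018 (plus) and Cyp3a13 at chr5:137921620-137921789 (minus). Capitals mark a TATAAA box on the gene's strand, the nuclear receptor half-site AGGTCA on either strand, or the AhR core GCGTG on either strand (CACGC on the opposite strand); these motifs do not overlap one another here.
Cyp2b10: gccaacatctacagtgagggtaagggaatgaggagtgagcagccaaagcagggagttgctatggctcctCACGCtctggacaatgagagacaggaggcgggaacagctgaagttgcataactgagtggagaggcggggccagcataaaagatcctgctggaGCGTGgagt
Cyp1a2: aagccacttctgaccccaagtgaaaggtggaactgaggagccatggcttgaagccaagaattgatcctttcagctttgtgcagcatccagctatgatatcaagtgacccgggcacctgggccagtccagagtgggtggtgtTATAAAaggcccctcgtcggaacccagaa
Cyp2e1: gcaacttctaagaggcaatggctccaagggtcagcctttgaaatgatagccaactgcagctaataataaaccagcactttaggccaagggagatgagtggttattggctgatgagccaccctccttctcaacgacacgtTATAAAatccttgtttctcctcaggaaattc
Cyp2c55: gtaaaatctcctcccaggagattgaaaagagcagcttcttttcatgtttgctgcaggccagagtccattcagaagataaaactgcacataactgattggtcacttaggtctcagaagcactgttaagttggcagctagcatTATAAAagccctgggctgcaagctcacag
Cyp3a13: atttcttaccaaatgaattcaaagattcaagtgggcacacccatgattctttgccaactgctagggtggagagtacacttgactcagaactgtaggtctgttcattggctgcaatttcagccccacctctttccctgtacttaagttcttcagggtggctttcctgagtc
TATAAA was found in Cyp1a2, Cyp2c29, Cyp2c55 and Cyp2e1, that is 4 of the 7 tested members, beginning 19 to 31 bases before the start, and in 5.32% of 32851 annotated promoters of the same length. AGGTCA was found in Cyp3a11 and Cyp2c29, and in 9.78% of promoters. GCGTG was found in Cyp2b10, with 1 match on each strand, and in 22.4% of promoters. Cyp3a13 held none of these letters within the window. The matches are descriptions of the letters only, and the distal enhancers known for Cyp2b10 and the Cyp1a genes lie outside these windows.

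In WT livers all 7 tested members were lower with PPT, with log2 differences between -0.38 and -3.78, while 31.0% of all tested probe sets were called in that comparison, 14.8% higher and 16.2% lower. In MOER livers 5 of 7 were called with PPT, 4 lower and Cyp3a13 higher, against 4.66% of all probe sets (2.35% higher and 2.31% lower). In ERKO livers 4 of 7 were called with PPT, 3 lower and Cyp2c55 higher, against 17.9% of all probe sets (9.48% higher and 8.46% lower). The members' median difference was -0.40 in MOER, -0.19 in ERKO and -1.5 in WT livers, where the median over all genes was 0.00 each time. The Cyp3a11 call in WT livers and the Cyp1a2 and Cyp2c29 calls in MOER livers depended on the analysis, as given with each gene. In ERKO livers the Cyp2b10, Cyp1a2 and Cyp2c55 calls were each lost in 1 of 22 alternatives. Their highest limma adjusted p was 0.0531, 0.139 and 0.0507 in turn. In bulk liver, fewer cells of a type and less RNA per cell cannot be told apart.

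**Figure D1:**
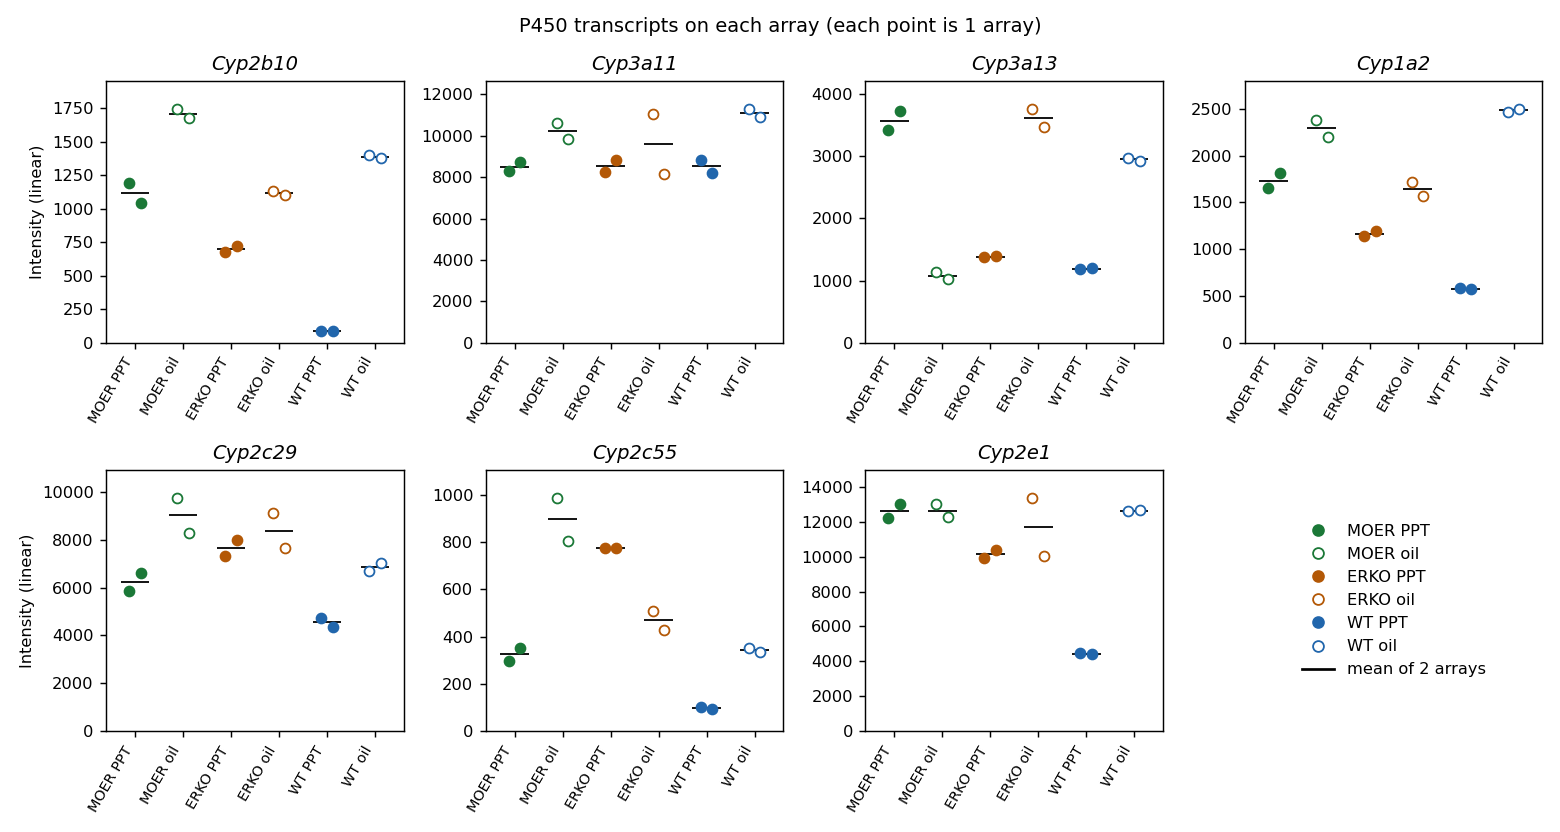
Intensity on a linear scale for the 7 tested P450s, 1 point per array, with the MOER, ERKO and WT livers in turn and PPT left of oil in each. WT livers given PPT stand lowest for Cyp2b10, Cyp1a2, Cyp2c29, Cyp2c55 and Cyp2e1, with Cyp2b10 at 87.4 and 84.3, and Cyp3a13 is high in MOER livers given PPT and in ERKO and WT livers given oil.

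Cyp2b10, the classical CAR target and an enzyme of phenobarbital-type induction, had the widest range of the members, with the highest group mean 19.9 times the lowest. It read 1189 and 1040.2 in MOER livers given PPT, against 1742 and 1676 in MOER livers given oil. It read 673 and 722 in ERKO livers given PPT, against 1134 and 1100.4 in ERKO livers given oil. The WT arrays read 87.4 and 84.3 with PPT, against 1401 and 1373 with oil. No PPT array overlapped the oil arrays of its genotype, and both WT arrays given PPT lay far below the other 10. The difference was -0.61 ± 0.092 in MOER (SE; limma adjusted p = 0.00268), -0.67 ± 0.092 in ERKO (adjusted p = 0.000984) and -3.78 ± 0.092 in WT livers (adjusted p = 1.77e-09). The MOER response was thus 3.17 ± 0.13 above the WT response (adjusted p = 9.45e-08) and the ERKO response 3.12 ± 0.13 above it (adjusted p = 8.04e-08). Between the MOER and ERKO responses the difference was 0.06 ± 0.13 (adjusted p = 0.832). Under oil, Cyp2b10 was higher in MOER than in ERKO livers by 0.61 ± 0.092 (adjusted p = 0.00725), and neither mutant was called against WT.

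Cyp2c55 and Cyp2c29 are CYP2C enzymes that oxidise arachidonic acid as well as drugs, and both are inducible through CAR and PXR. Cyp2c55 read 297 and 352 in MOER livers given PPT, against 986 and 805 in MOER livers given oil. In ERKO livers given PPT both arrays read 774, against 508 and 429.7 in ERKO livers given oil. WT livers read 104 and 93.2 after PPT, against 353 and 333 after oil. Cyp2c55 therefore fell with PPT in MOER livers (-1.42 ± 0.13, adjusted p = 7.17e-05) and in WT livers (-1.65 ± 0.13, adjusted p = 3.47e-06), and rose in ERKO livers (0.71 ± 0.13, adjusted p = 0.00428). The ERKO response differed from the WT response by 2.36 ± 0.18 (adjusted p = 6.68e-06), and the MOER response from the ERKO response by -2.13 ± 0.18 (adjusted p = 3.22e-05). The MOER response was 0.23 ± 0.18 above the WT response (adjusted p = 0.45). Under oil Cyp2c55 was higher in MOER than in WT livers by 1.34 ± 0.13 (adjusted p = 0.000158) and than in ERKO livers by 0.91 ± 0.13 (adjusted p = 0.00442). The MOER fall and these oil differences rest on the arrays that carried pancreatic transcripts, and the ERKO rise on those that carried lung transcripts.

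Cyp2c29 varied less, with a highest group mean 1.98 times the lowest. It read 5842 and 6629 in MOER livers given PPT, against 9751 and 8299 in MOER livers given oil. It read 7328 and 8003 in ERKO livers given PPT, against 9099 and 7662 in ERKO livers given oil, and these arrays overlapped. In WT livers given PPT it read 4744 and 4369, against 6681 and 7039.7 in WT livers given oil. The difference was -0.53 ± 0.12 in MOER (adjusted p = 0.0331), -0.12 ± 0.12 in ERKO (adjusted p = 0.529) and -0.59 ± 0.12 in WT livers (adjusted p = 0.00353). The MOER call was lost in 12 of 22 alternative analyses, including leaving out any 1 array other than those of the ERKO oil group, with adjusted p between 0.00428 and 0.285. No difference between the responses of 2 genotypes was called for Cyp2c29; the ERKO minus WT difference was 0.46 ± 0.17 (adjusted p = 0.0794).

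Among the CYP3A genes, Cyp3a11 is the main drug-metabolising form of mouse liver and the standard PXR target, and it was the steadiest member, with a highest group mean 1.3 times the lowest. It read 8288 and 8741 in MOER livers given PPT, against 10610.4 and 9832 in MOER livers given oil. It read 8267 and 8844 in ERKO livers given PPT, against 11032 and 8157 in ERKO livers given oil, where the oil arrays lay on both sides of the PPT arrays. The WT arrays read 8847 and 8188 with PPT, against 11295 and 10895 with oil. The differences were -0.26 ± 0.13 in MOER (adjusted p = 0.399), -0.15 ± 0.13 in ERKO (adjusted p = 0.476) and -0.38 ± 0.13 in WT livers (adjusted p = 0.0473). The WT call was lost in 12 of 22 alternatives, 10 of which left out 1 array, with adjusted p between 0.00138 and 0.218. No genotype difference was called for Cyp3a11 under either treatment.

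Cyp3a13, a CYP3A form also known in the intestine, had opposite responses in the 2 mutants. It read 3427 and 3729 in MOER livers given PPT, against 1135 and 1017 in MOER livers given oil. It read 1374 and 1389 in ERKO livers given PPT, against 3763 and 3473 in ERKO livers given oil. WT livers read 1187 and 1200.0 after PPT, against 2979 and 2932 after oil. High arrays were thus those of MOER with PPT and of ERKO and WT with oil, and PPT and oil arrays of the same genotype did not overlap. The gene rose by 1.72 ± 0.092 in MOER livers (adjusted p = 1.27e-06) and fell in ERKO livers (-1.38 ± 0.092, adjusted p = 4.15e-06) and in WT livers (-1.3 ± 0.092, adjusted p = 1.85e-06). The MOER response differed from the WT response by 3.02 ± 0.13 (adjusted p = 1.44e-07) and from the ERKO response by 3.1 ± 0.13 (adjusted p = 1.17e-07), whereas the ERKO and WT responses differed by -0.08 ± 0.13 (ERKO minus WT, adjusted p = 0.728). Under oil Cyp3a13 was lower in MOER livers than in WT livers (-1.45 ± 0.092, adjusted p = 6.73e-06) and than in ERKO livers (-1.74 ± 0.092, adjusted p = 2.06e-06). The MOER oil level, from the arrays with pancreatic transcripts, enters each of these MOER values. Between groups given PPT, Cyp3a13 was higher in MOER than in WT livers by 1.57 (adjusted p = 4.46e-07) and than in ERKO livers by 1.36 (adjusted p = 4.32e-06), the second of these resting on the arrays with lung transcripts.

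A second probe set matched Cyp3a11 together with Cyp3a41a, Cyp3a41b and Cyp3a44, near-identical genes that include female-predominant forms, and its values cannot be assigned to one of them. It read 5219.6 and 5947 in MOER livers given PPT, against 6779 and 5848 in MOER livers given oil. It read 4445 and 4816 in ERKO livers given PPT, against 6046 and 5343 in ERKO livers given oil. In WT livers given PPT it read 21555 and 19824, against 15022 and 14092 in WT livers given oil, so every WT array lay above every mutant array. In WT livers this set rose by 0.51 ± 0.11 with PPT (adjusted p = 0.00602), while the Cyp3a11 probe set fell there. Neither mutant was called with PPT (MOER -0.18 ± 0.11, adjusted p = 0.564; ERKO -0.30 ± 0.11, adjusted p = 0.1). Under oil it was lower than WT in MOER livers (-1.21 ± 0.11, adjusted p = 0.000153) and in ERKO livers (-1.35 ± 0.11, adjusted p = 0.000104); both comparisons share the WT oil arrays.

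**Figure D2:**
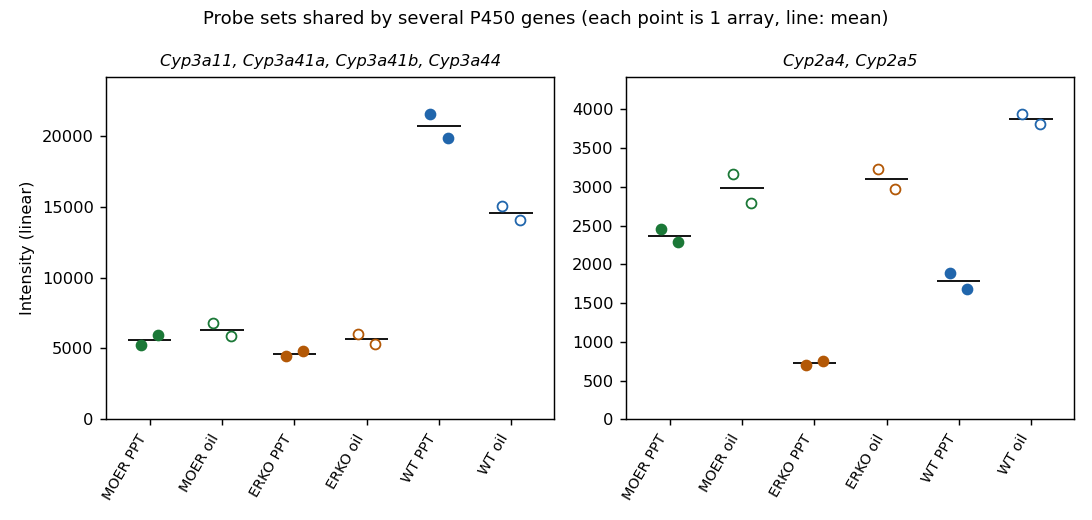
Intensity on a linear scale, 1 point per array, for the probe set matching Cyp3a11, Cyp3a41a, Cyp3a41b and Cyp3a44 and for the probe set matching Cyp2a4 and Cyp2a5, by genotype with PPT left of oil. The CYP3A set separates WT arrays (14092 to 21555) from all mutant arrays, and the CYP2A set is lowest in ERKO livers given PPT at 706 and 755.

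Cyp1a2, a constitutive liver enzyme that metabolises caffeine and is induced through AhR, read 1650.3 and 1811 in MOER livers given PPT, against 2381 and 2197 in MOER livers given oil. It read 1139.8 and 1190.3 in ERKO livers given PPT, against 1712 and 1572 in ERKO livers given oil. The WT arrays read 581 and 574 with PPT, against 2467 and 2497 with oil. All 3 genotypes were lower with PPT without overlap, and the WT arrays given PPT were the lowest of the 12. The difference was -0.40 ± 0.091 in MOER (adjusted p = 0.0328), -0.49 ± 0.091 in ERKO (adjusted p = 0.00528) and -2.07 ± 0.091 in WT livers (adjusted p = 5.73e-08). The MOER call was lost in 12 of 22 alternatives, as for Cyp2c29, with adjusted p between 0.00397 and 0.27. The response was 1.67 ± 0.13 above WT in MOER livers (adjusted p = 8.11e-06) and 1.59 ± 0.13 above WT in ERKO livers (adjusted p = 1.09e-05), and the mutants' responses differed by 0.09 ± 0.13 (adjusted p = 0.726). Under oil Cyp1a2 was lower in ERKO than in WT livers (-0.59 ± 0.091, adjusted p = 0.00514), a call lost when either WT oil array was left out.

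Cyp1a1, the strongly AhR-inducible form that is nearly silent in uninduced liver, was below the 40th percentile of signal on all 12 arrays and was not tested. Its arrays read 13.5 and 19.9 in MOER livers given PPT and 15.8 and 23.5 in MOER livers given oil. They read 22.8 and 26.4 in ERKO livers given PPT and 17.1 and 33.1 in ERKO livers given oil. In WT livers they read 23.1 and 25.1 with PPT and 31.8 and 29.6 with oil. At this level no change, of either sign, could be measured.

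Cyp2e1, the enzyme that oxidises ethanol and paracetamol around the central vein, read 12202 and 12984 in MOER livers given PPT, against 12980.5 and 12262 in MOER livers given oil. It read 9909.5 and 10372 in ERKO livers given PPT, against 13365 and 10047 in ERKO livers given oil. WT livers read 4476 and 4417 after PPT, against 12584 and 12659.7 after oil. Only the WT livers given PPT stood apart, and the PPT and oil arrays of both mutants overlapped. The WT difference was -1.5 ± 0.12 (adjusted p = 5.07e-06), against 0.00 ± 0.12 in MOER (adjusted p = 0.996) and -0.19 ± 0.12 in ERKO livers (adjusted p = 0.313). The MOER response lay 1.5 ± 0.17 above the WT response (adjusted p = 0.000121) and the ERKO response 1.31 ± 0.17 above it (adjusted p = 0.000348). These response differences share the WT arrays.

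The probe set matching Cyp2a5, the coumarin hydroxylase, and Cyp2a4, a steroid hydroxylase, cannot be divided between them. It read 2455 and 2283 in MOER livers given PPT, against 3166 and 2795 in MOER livers given oil. It read 706 and 755 in ERKO livers given PPT, against 3230.0 and 2972 in ERKO livers given oil. In WT livers given PPT it read 1889 and 1676, against 3942 and 3816 in WT livers given oil. The difference was -0.33 ± 0.1 in MOER (adjusted p = 0.126), -2.06 ± 0.1 in ERKO (adjusted p = 3.36e-07) and -1.12 ± 0.1 in WT livers (adjusted p = 1.3e-05). For this set the ERKO response was lower than the WT response (-0.94 ± 0.15, adjusted p = 0.000965), and the MOER response was 0.79 ± 0.15 above the WT response (adjusted p = 0.00267).

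**Figure D3:**
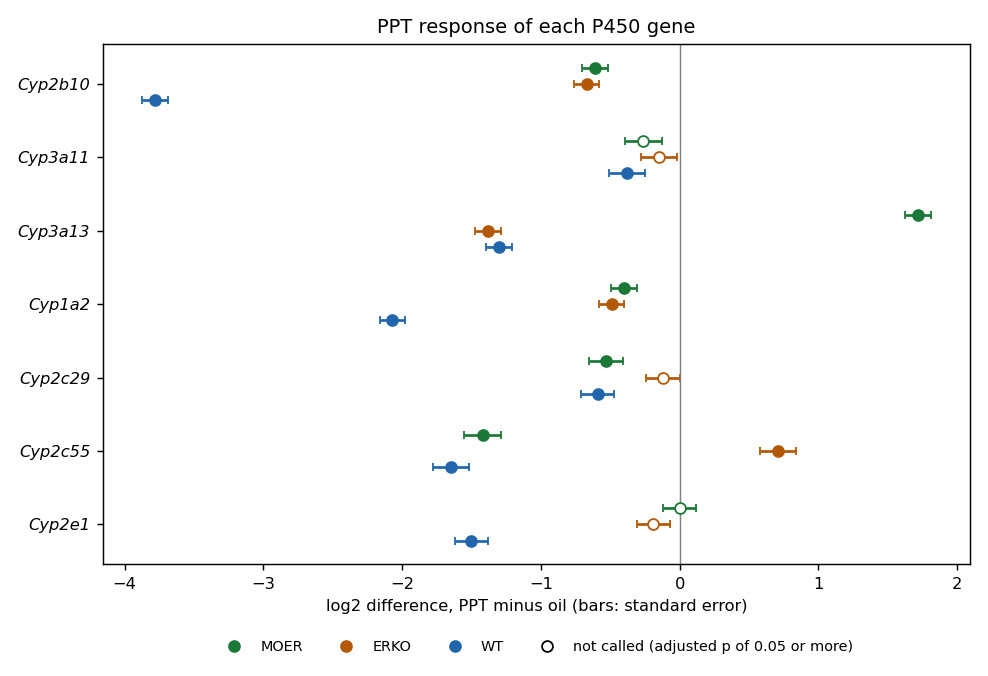
Log2 difference of PPT minus oil for the 7 tested P450s in MOER, ERKO and WT livers, with bars for the standard error and filled points for an adjusted p under 0.05. Cyp2b10, Cyp1a2 and Cyp2e1 have their lowest points in WT livers, Cyp3a13 is above 0 in MOER livers only, and Cyp2c55 is above 0 in ERKO livers only.

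Tests of the response differences themselves called 4 of 7 members between MOER and WT livers, all 4 higher in MOER, against 21.6% of all probe sets called (11.1% higher and 10.5% lower). Those were Cyp2b10, Cyp3a13, Cyp1a2 and Cyp2e1. Between ERKO and WT livers 4 of 7 were called, all 4 higher in ERKO, against 22.3% called (12% higher and 10.3% lower): Cyp2b10, Cyp2c55, Cyp1a2 and Cyp2e1. Between MOER and ERKO livers 2 of 7 were called, Cyp3a13 higher and Cyp2c55 lower in MOER, against 11.5% of all probe sets (5.88% higher and 5.59% lower).

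The comparisons under oil address how the mutants stood against WT without the agonist. Between MOER and WT livers given oil 2 of 7 members were called, Cyp2c55 higher and Cyp3a13 lower, against 5.66% of all probe sets (2.13% higher and 3.53% lower). Between ERKO and WT livers given oil only Cyp1a2 was called, lower in ERKO (1 of 7, against 5.01% of all probe sets, 2.24% higher and 2.77% lower). At an unadjusted p under 0.05 by limma there were 5 of 7, to which the 5.01% of adjusted calls does not apply. The share of all probe sets at that unadjusted threshold was not computed, here or for the lists below. Between MOER and ERKO livers given oil 4 of 7 were called, Cyp2b10, Cyp1a2 and Cyp2c55 higher and Cyp3a13 lower in MOER, against 2.05% (0.894% higher and 1.16% lower). In that comparison the Cyp1a2 call was lost in 9 of 21 alternatives (adjusted p between 0.00218 and 0.18; with no filter and without any 1 array of the MOER oil, ERKO PPT, WT PPT or WT oil groups), and the Cyp2b10 call in 2, without either MOER oil array (highest adjusted p = 0.0781). Cyp3a11, Cyp2c29 and Cyp2e1 were called in none of the 3 oil comparisons. The MOER and ERKO comparisons with WT share the WT oil arrays.

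**Figure D4:**
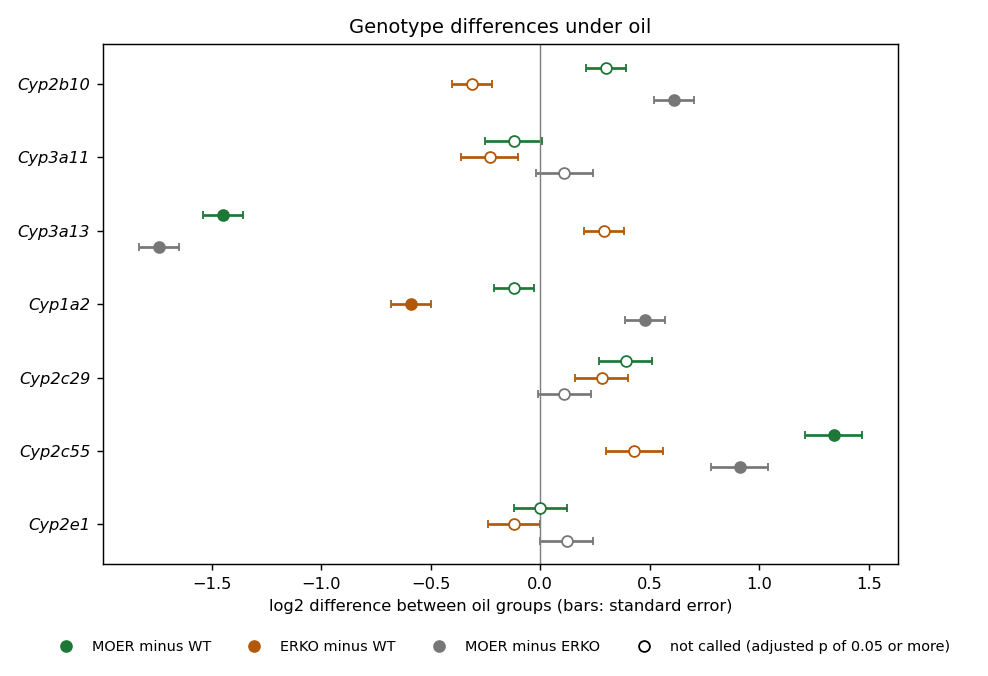
Log2 differences between oil groups for the 7 tested P450s, MOER minus WT, ERKO minus WT and MOER minus ERKO, with bars for the standard error and filled points for an adjusted p under 0.05. Cyp3a13 lies at -1.45 and -1.74 in the MOER comparisons and Cyp2c55 at 1.34 and 0.91, while Cyp3a11, Cyp2c29 and Cyp2e1 have open points only.

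With PPT the mutants lay above WT for most of the 7 tested members. The shared probe sets are outside the counts below. The set matching Cyp3a11 and its neighbours was lower than WT in MOER (-1.89 ± 0.11, adjusted p = 5.41e-07) and in ERKO livers (-2.16 ± 0.11, adjusted p = 1.71e-07). The set matching Cyp2a5 and Cyp2a4 was lower in ERKO (-1.27 ± 0.1, adjusted p = 4.97e-06) and higher in MOER livers (0.41 ± 0.1, adjusted p = 0.0104). Between MOER and WT livers given PPT 6 of 7 were called, all 6 higher in MOER, against 35.5% of all probe sets (15.4% higher and 20.1% lower), and Cyp3a11 was the exception at 0.00. Between ERKO and WT livers given PPT 5 of 7 were called, all 5 higher in ERKO, against 32.1% (14.3% higher and 17.7% lower). The largest of these differences was that of Cyp2b10, 3.47 in MOER (adjusted p = 1.74e-09) and 2.81 in ERKO livers (adjusted p = 4.06e-09). Cyp2c55 was 1.57 higher in MOER (adjusted p = 4.88e-06) and 2.79 higher in ERKO livers (adjusted p = 5.45e-08), and Cyp2e1 was 1.5 higher in MOER (adjusted p = 4.95e-06) and 1.19 higher in ERKO livers (adjusted p = 3.04e-05). Between MOER and ERKO livers given PPT 4 of 7 were called, against 22.1% (10% higher and 12.1% lower): Cyp2b10 (0.66), Cyp3a13 (1.36) and Cyp1a2 (0.56) were higher and Cyp2c55 (-1.22) was lower in MOER.

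The order of the 6 group levels differed among members. Cyp2b10 ran, high to low, through MOER oil, WT oil, ERKO oil, MOER PPT, ERKO PPT and WT PPT, and the ERKO oil and MOER PPT arrays overlapped while the other neighbours did not. Cyp1a2 ran through WT oil, MOER oil, MOER PPT, ERKO oil, ERKO PPT and WT PPT, with overlap between MOER PPT and ERKO oil. Cyp2c55 ran through MOER oil, ERKO PPT, ERKO oil, WT oil, MOER PPT and WT PPT, with overlap between WT oil and MOER PPT. Cyp3a13 ran through ERKO oil and MOER PPT, which overlapped, and then WT oil, ERKO PPT, WT PPT and MOER oil. For Cyp3a11 every neighbour below MOER oil overlapped, and for Cyp2e1 only WT PPT was separate from the group above it. Cyp2c29 ran through MOER oil, ERKO oil, ERKO PPT, WT oil, MOER PPT and WT PPT, and its first 3 overlapped.

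Members were compared with each other and with 13980 other tested genes by the root mean square difference of the 6 group means on the log2 scale, each gene centred on its own mean. This is a description of 6 groups, with no test. Among the members Cyp1a2 and Cyp2e1 were closest (0.265), followed by Cyp3a11 and Cyp2c29 (0.284), and Cyp2b10 and Cyp3a11 were farthest apart (1.29). Outside the members, the gene nearest to Cyp2b10 was Slco1a4, an organic anion transporter of the hepatocyte membrane (0.272, against a median of 1.37 over all genes), followed by Car3, a carbonic anhydrase (0.273), and Atp6v0d2, a proton pump subunit (0.295). Nearest to Cyp1a2 were Aldh1b1, an aldehyde dehydrogenase (0.122), Cyp4f14, a fatty acid P450 (0.125), and Fads1, a fatty acid desaturase (0.13), against a median of 0.708. Nearest to Cyp3a11 were Etfa (0.0239), Foxa2 (0.0263) and Dera (0.038), against 0.221, and nearest to Cyp2c55 were Slc46a3 (0.326), Sucnr1 (0.35) and Tlcd2 (0.372), against 0.992.

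Among the other P450s of families 1 to 3, falls were most numerous in WT livers. Of 32 tested, 1 rose and 4 fell with PPT in MOER livers (median -0.29), 2 rose and 15 fell in ERKO livers (median -0.36), and 0 rose and 23 fell in WT livers (median -1.13). The 0 that rose in WT by limma stands against 14.8% of all probe sets called higher, and it was also 0 at an unadjusted p under 0.05, with quantile normalization and with median centring. The shares of all probe sets called lower were 2.31% in MOER, 8.46% in ERKO and 16.2% in WT livers, and they apply to each list that follows. Cyp2b9, a CYP2B enzyme of female liver, fell in MOER livers (4544 with PPT and 7022 with oil, -0.63 ± 0.083, adjusted p = 0.00116), in ERKO livers (1168 with PPT and 6292 with oil, -2.41 ± 0.083, adjusted p = 1.48e-08) and in WT livers (1382 with PPT and 5705 with oil, -2.03 ± 0.083, adjusted p = 3.42e-08). Cyp2d40 rose in MOER livers (2462 with PPT and 1437 with oil, 0.77 ± 0.095, adjusted p = 0.000663) and fell in WT livers (501 with PPT and 1682 with oil, -1.71 ± 0.095, adjusted p = 3.03e-07), with a difference of 0.28 in ERKO livers (adjusted p = 0.0675). Cyp2a22 fell in all 3 genotypes, with differences of -1.22 ± 0.23 in MOER (adjusted p = 0.0111), -1.98 ± 0.23 in ERKO (adjusted p = 0.000284) and -2.31 ± 0.23 in WT livers (adjusted p = 2.12e-05). Cyp2b13 was at -0.08 ± 0.093 in MOER livers (adjusted p = 0.789) and fell in ERKO livers (-3.16 ± 0.093, adjusted p = 3.92e-09) and in WT livers (-1.63 ± 0.093, adjusted p = 3.98e-07).

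The electron donors, in the absence of a value for Por, were represented by 7 cytochrome b5, b5 reductase and related genes. With PPT 0 rose and 2 fell in MOER livers, none was called in ERKO livers, and 0 rose and 4 fell in WT livers, with medians of -0.24, -0.24 and -0.51. At an unadjusted p under 0.05, 1 was higher and 4 were lower in ERKO livers, and 3 were called lower there under each of 2 other scalings. Cyb5a, the other cytochrome b5 gene of the list, was called with PPT in no genotype. It was at -0.26 in MOER (limma adjusted p = 0.254), 0.09 in ERKO (adjusted p = 0.577) and -0.09 in WT livers (adjusted p = 0.54). Cyb5b, the outer mitochondrial membrane form of cytochrome b5, averaged 1909 in MOER livers given PPT and 2526 with oil (-0.40 ± 0.084, adjusted p = 0.0214). In WT livers Cyb5b averaged 1100.2 with PPT and 2470.1 with oil (-1.16 ± 0.084, adjusted p = 2.24e-06). Cyb5r3, a cytochrome b5 reductase, fell in MOER (-0.47 ± 0.1, adjusted p = 0.0215) and in WT livers (-1.26 ± 0.1, adjusted p = 3.98e-06). Pgrmc1, a haem-binding partner of P450s, fell in WT livers (-0.62 ± 0.095, adjusted p = 0.000522) and was at -0.24 in MOER livers (adjusted p = 0.242).

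Of the 11 tested receptors and partners that act on P450 genes, 0 rose and 0 fell in MOER livers given PPT, 0 rose and 6 fell in ERKO livers, and 1 rose and 6 fell in WT livers (medians 0.08, -0.33 and -0.37). At an unadjusted p under 0.05, 1 was higher and 0 were lower in MOER livers by limma. Nr1i3, which encodes CAR, averaged 782 in WT livers given PPT and 1555 with oil, a fall of -0.98 ± 0.091 (adjusted p = 1.34e-05). In ERKO livers Nr1i3 averaged 661 with PPT and 1331 with oil (-0.99 ± 0.091, adjusted p = 5.48e-05), and in MOER livers 1115 with PPT and 1050.0 with oil, which was not called. Cebpa, a hepatocyte transcription factor, fell in WT livers (-1.39 ± 0.1, adjusted p = 2.73e-06), and Ppara, the fatty acid receptor, fell there (-0.89 ± 0.094, adjusted p = 3.29e-05) and was at 0.33 ± 0.094 in MOER livers (adjusted p = 0.0812). Nr1i2, which encodes PXR, was at 0.08 in MOER (adjusted p = 0.819), -0.33 ± 0.1 in ERKO (adjusted p = 0.0456) and 0.02 in WT livers (adjusted p = 0.917). In MOER livers the smallest p-values after Ppara were those of Rxra (0.26, adjusted p = 0.37) and Ahr (-0.16, adjusted p = 0.529).

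Known CAR and PXR targets outside the members numbered 16 tested genes. With PPT 0 rose and 2 fell in MOER livers, 1 rose and 10 fell in ERKO livers, and 2 rose and 11 fell in WT livers (medians -0.20, -0.62 and -0.50). Ephx1, Ces2a, Aldh1a1, Aldh1a7, Ugt2b34, Fmo5, Sult1d1 and Papss2 are also counted among the conjugating enzymes below. Cyp2c37 is also counted among the other P450s and Alas1 among the haem genes. Of the genes in this list only, Slco1a4 and Abcc2 fell in WT livers, and Abcc3 and Abcc4 were not called there. Gadd45b (1.82, limma adjusted p = 1.29e-06) and Abcb1a (0.48, adjusted p = 0.00166) rose there. Slco1a4 averaged 2443 in MOER livers given PPT and 3998 with oil (-0.71 ± 0.093, adjusted p = 0.00103), 1494 in ERKO livers given PPT and 3474 with oil (-1.21 ± 0.093, adjusted p = 1.34e-05), and 341 in WT livers given PPT and 3233 with oil (-3.19 ± 0.093, adjusted p = 3.74e-09). Papss2, which makes the sulfate donor, fell in WT livers (-1.71 ± 0.096, adjusted p = 3.53e-07), as did Abcc2, the canalicular export pump (-1.27 ± 0.081, adjusted p = 8.86e-07). Both also fell in ERKO livers (Papss2 -0.66 ± 0.096, adjusted p = 0.00129, and Abcc2 -0.58 ± 0.081, adjusted p = 0.00106). Neither was called in MOER livers (-0.25, adjusted p = 0.224, and -0.10, adjusted p = 0.667). Ephx1, microsomal epoxide hydrolase, fell in MOER (-0.63 ± 0.084, adjusted p = 0.00119) and in ERKO livers (-1.03 ± 0.084, adjusted p = 2.29e-05). In WT livers Ephx1 was at 0.00 ± 0.084 (adjusted p = 0.985). Only 3 AhR targets outside the members passed the filter. Of those, 0 rose and 1 fell in MOER, 0 rose and 2 fell in ERKO, and 1 rose and 1 fell in WT livers, with Ugdh, which makes the glucuronic acid donor, at -0.51 ± 0.089 in MOER (adjusted p = 0.00733) and 0.27 ± 0.089 in WT livers (adjusted p = 0.0423), and Nqo1, a quinone reductase, at -0.40 ± 0.11 in WT livers (adjusted p = 0.0169). Ugdh was at -0.37 ± 0.089 in ERKO livers (adjusted p = 0.0175), and Nqo1 at -0.40 ± 0.11 in MOER livers (adjusted p = 0.0726). Ugdh is also counted among the conjugating enzymes below.

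Of 36 conjugating and other non-P450 drug enzymes tested, 0 rose and 13 fell in MOER, 0 rose and 20 fell in ERKO, and 1 rose and 27 fell in WT livers (medians -0.29, -0.36 and -0.76). Ces1d, a carboxylesterase, averaged 2222 in MOER livers given PPT and 5465 with oil (-1.29 ± 0.085, adjusted p = 7.22e-06), and 1123 in WT livers given PPT and 6163 with oil (-2.44 ± 0.085, adjusted p = 1.13e-08). In ERKO livers Ces1d averaged 1925 with PPT and 5558 with oil (-1.52 ± 0.085, adjusted p = 9.06e-07). Ces3b, another carboxylesterase, fell in MOER (-0.79 ± 0.086, adjusted p = 0.000271), in ERKO (-0.35 ± 0.086, adjusted p = 0.0188) and in WT livers (-2.09 ± 0.086, adjusted p = 3.4e-08). Fmo2, a flavin monooxygenase, fell in MOER livers (-1.46 ± 0.1, adjusted p = 9.96e-06) and in WT livers (-1.89 ± 0.1, adjusted p = 2.34e-07). In ERKO livers Fmo2 averaged 572 with PPT and 1032 with oil. Aox3, an aldehyde oxidase, fell in WT livers (-2.36 ± 0.089, adjusted p = 1.78e-08). It was at -0.23 in MOER (adjusted p = 0.228) and -0.17 in ERKO livers (adjusted p = 0.223). Of 11 genes of haem synthesis and breakdown, 1 rose and 0 fell in MOER, 0 rose and 3 fell in ERKO, and 3 rose and 6 fell in WT livers. Hmox1, the inducible haem oxygenase, rose in MOER livers (338 with PPT and 157 with oil, 1.04 ± 0.19, adjusted p = 0.0113), and Hmox2, the constitutive form, rose in WT livers (1691 with PPT and 899.5 with oil, 0.90 ± 0.11, adjusted p = 0.000114). Cpox and Blvrb, enzymes of haem synthesis and bile pigment formation, fell in WT livers (-0.64 ± 0.09, adjusted p = 0.00028, and -0.70 ± 0.11, adjusted p = 0.000711).

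**Figure D5:**
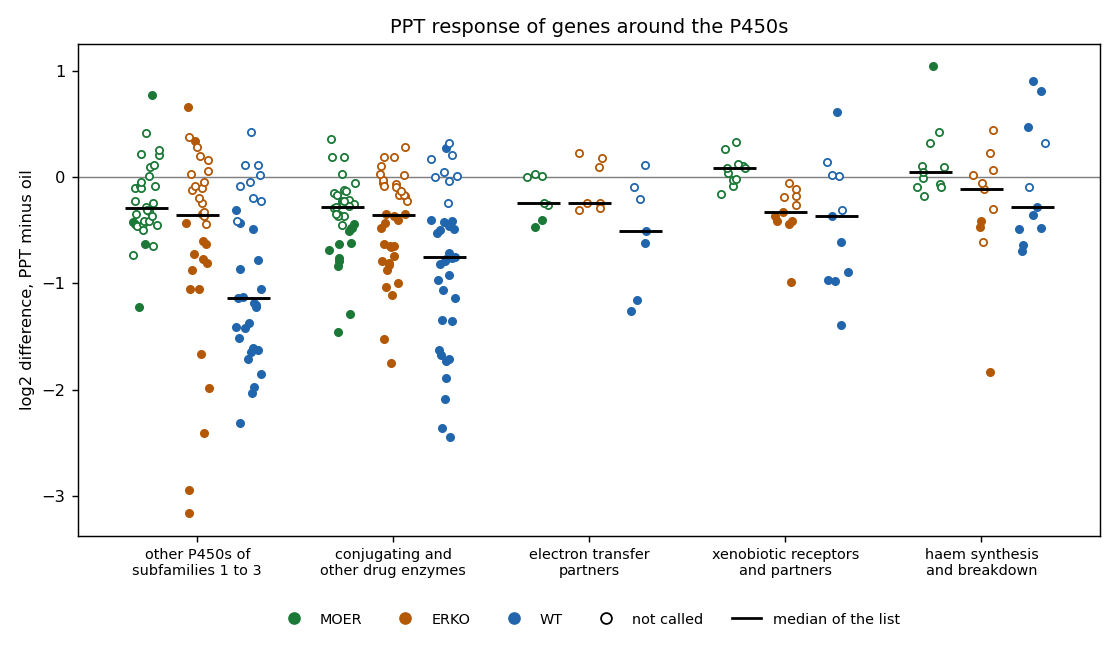
Log2 difference of PPT minus oil for each tested gene of 5 lists (other P450s, conjugating enzymes, electron donors, receptors and haem genes; 1 point per gene, filled where called) in MOER, ERKO and WT livers, with a bar at the list's median. Medians of the other P450s lie at -0.29 in MOER, -0.36 in ERKO and -1.13 in WT livers.

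Marker genes of hepatocytes and of the zone around the central vein also moved with PPT in WT livers. Of 16 hepatocyte markers, 1 rose and 0 fell in MOER, 0 rose and 5 fell in ERKO, and 1 rose and 10 fell in WT livers, with medians of 0.01, -0.03 and -0.39. Their summed intensity ran between 180614 and 187850 on the MOER PPT arrays and between 171661 and 176067 on the MOER oil arrays. It ran between 157943 and 159668 with PPT and 139903 and 180153 with oil in ERKO livers, and between 130714 and 138523 with PPT and 164382 and 167674 with oil in WT livers. Among 12 pericentral genes 2 rose and 2 fell in MOER, 0 rose and 4 fell in ERKO, and 1 rose and 7 fell in WT livers (medians 0.04, -0.28 and -0.55). Glul, the pericentral glutamine synthetase, fell in WT livers (-1.71 ± 0.12, adjusted p = 2.33e-06), and Slc1a2, a glutamate transporter of the same cells, rose by 0.52 ± 0.087 in MOER (adjusted p = 0.00564) and fell in WT livers (-1.2 ± 0.087, adjusted p = 2.09e-06). Endothelial and stellate markers summed to 8428 and 8498 with PPT and 11653 and 11946 with oil in WT livers, and Kupffer cell markers to 11451 and 11495 with PPT and 9639 and 9881 with oil. A few genes carried these sums, and the lists were mixed. In WT livers Clec4g averaged 1585 with PPT and 4127 with oil, Lrat 94.2 and 520, and Reln 137 and 302. Lyve1, the only endothelial or stellate marker called higher there, averaged 422 with PPT and 238 with oil. Among Kupffer cell markers Cd5l averaged 2727 and 1797 and Marco 978 and 135, whereas Clec4f averaged 1002 and 1240. Of 11 endothelial and stellate markers 0 rose and 0 fell in MOER (1 each way at an unadjusted p under 0.05), 4 rose and 0 fell in ERKO, and 1 rose and 4 fell in WT livers. Of 11 Kupffer cell markers 3 rose and 1 fell in MOER, 0 rose and 6 fell in ERKO, and 4 rose and 1 fell in WT livers. Fabp2, an enterocyte gene also measured in liver, averaged 6262 in WT livers given PPT and 1932 with oil. It averaged 3345 with PPT and 1871 with oil in ERKO livers, and 976 with PPT and 1622 with oil in MOER livers. The median WT difference was -1.5 for the members, -0.39 for the hepatocyte markers and -0.55 for the pericentral genes. Single hepatocyte markers ran from -1.99 (Cps1) to 0.45 (Tat) in WT livers. The part of these shifts in the members' responses was not tested.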

How the data were processed

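Total RNA of whole liver, pooled from 3 animals per array and repeated a second time per the labels' protocols, was hybridised to Affymetrix Mouse Gene 1.0 ST arrays. The deposited values are intensities per probe set on a linear scale, and the authors' probe summary and normalization are not given in the sources used here; array medians lay between 77.5 and 85.3. The labels name Cyber-T with a 2-fold minimum for the authors' own tests. Platform annotation gave 1 symbol to 21780 of 28815 probe sets, several to 1605 and none to 5430, and 21689 of the 1-symbol probe sets matched the RefSeq gene table of GRCm38.p6.

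From these values, log2(intensity + 16) was fitted with limma 3.58.1 in R 4.3.3 as 6 group means over all 12 arrays, with 12 contrasts, on the 19119 probe sets above the 40th percentile in at least 2 arrays (6 residual degrees of freedom, 10.47 after moderation). Of those, 15226 had 1 symbol, from 13987 genes. The fit was also run on simulated data with independent errors and shifts set in the WT PPT group, read in the WT response only. That simulation held no pooling, no pancreatic or lung transcripts and no looser ERKO oil pair, so it cannot speak to those. Genes of the lists outside the members were mostly named as the 3 with the smallest p in WT and in MOER livers of each list. Not all of those are printed. Others were added after their values were seen. Nr1i2, and Nr1i3 in ERKO and MOER livers, were added as receptors of the members, and Sftpc, Sftpb and Sftpa1 as lung genes. Cyb5a, Gadd45b, Abcb1a, Abcc3, Abcc4, Lyve1, Clec4f and Tat were added to show more of their lists. The members and lists were chosen with earlier results of these data known. The number of arrays, 2 per group, limits the precision. Alternatives varied the number added, filter, scaling, variance trend, replicate block, probe set choice, arrays fitted and test, and left out each array in turn.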

Additional observations from a re-analysis of the deposited data

Results flagged for a closer look

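Each of the following gene responses to PPT differed between genotypes by a limma test of the difference itself, with 2 arrays in every group. The MOER response exceeded the WT response by 3.17 (log2) for Cyp2b10, 3.02 for Cyp3a13, 1.67 for Cyp1a2 and 1.5 for Cyp2e1. The ERKO response exceeded the WT response by 3.12 for Cyp2b10, 1.59 for Cyp1a2, 2.36 for Cyp2c55 and 1.31 for Cyp2e1. The MOER response exceeded the ERKO response by 3.1 for Cyp3a13 and lay below it for Cyp2c55, at -2.13. The MOER values rest on oil arrays with pancreatic transcripts and the ERKO values on PPT arrays with lung transcripts. No search for single outlying arrays was possible in groups of 2.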

How the results depend on the processing

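The 84 gene and contrast combinations of the 7 tested members were recomputed under the alternatives, giving 1785 values, of which 1649 kept their direction and their side of the threshold, 54 lost a call, 50 gained one and 32, all from differences that were not called, changed sign. Leaving out each array in turn, the number of members called with PPT ran between 3 and 5 in MOER livers, 4 and 6 in ERKO livers and 6 and 7 in WT livers. For oil, it ran between 0 and 4 for ERKO against WT (0 without either WT oil array, 4 without ERKO oil replicate 1), 2 and 4 for MOER against WT (4 without either ERKO oil array) and 2 and 5 for MOER against ERKO (2 without either MOER oil array). The MOER count with PPT was 3 with no filter, 3 on MOER arrays alone and 2 by a Cyber-T-style test at the labels' threshold, and the ERKO count was 7 with quantile normalization, 1 on ERKO arrays alone and 1 by that test, which called 170 probe sets in MOER, 290 in ERKO and 1129 in WT livers. Under oil, ERKO against WT gave 3 with 64 added and 4 each with quantile normalization, median centring or an intensity trend, and MOER against WT gave 4 under each of those 4. Over 15 pairs of groups the correlation of same-numbered deviations ran between -0.147 and 0.377, over 0.1 in 5, which included the 3 pairs of oil groups (0.354, 0.276 and 0.377); since the other 10 were not, the numbers were not taken to pair the samples. With the replicate number as a block over all arrays no call of a member changed in any contrast. With a block over the oil arrays only, chosen after seeing these correlations, ERKO against WT under oil gave 2, Cyp2c55 being added, and no other call changed.

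The sign changes under quantile normalization were, for Cyp3a11 between MOER and ERKO, -0.06 with oil, 0.07 with PPT and 0.13 for the response, for Cyp2c29 between MOER and ERKO with oil -0.07, and for Cyp2e1 0.07 in MOER with PPT, 0.06 for ERKO against WT with oil and -0.10 for MOER against ERKO with oil. Under median centring they were 0.00 for Cyp2e1 in MOER with PPT and 0.05 for MOER against WT with oil. With each array left out in turn, Cyp2b10 for the response of MOER against ERKO ran between -0.04 and 0.15. Cyp3a11 ran between -0.37 and 0.07 in ERKO with PPT, -0.11 and 0.32 for MOER against ERKO with oil, -0.06 and 0.04 for that pair with PPT, -0.33 and 0.10 for that pair's response, and with PPT between -0.05 and 0.06 for ERKO against WT and -0.06 and 0.06 for MOER against WT. Cyp2c29 ran between -0.02 and 0.23 for MOER against ERKO with oil and -0.06 and 0.17 for the response of MOER against WT. Cyp2e1 ran between -0.05 and 0.04 in MOER and -0.40 and 0.01 in ERKO with PPT, and with oil between -0.33 and 0.08 for ERKO against WT, -0.04 and 0.04 for MOER against WT and -0.08 and 0.33 for MOER against ERKO, and for that pair's response between -0.02 and 0.39. The cause of these changes was not tested. Of the other gene lists, none changed the sign of its median under the 2 scalings. In MOER livers the other P450s called lower numbered 8 with quantile normalization and 9 with median centring. Under both, the conjugating enzymes called lower in MOER livers numbered 18 and the CAR and PXR targets, some of them the same genes, 5. In ERKO livers 3 electron donors, 5 haem genes and 7 pericentral genes were called lower under both; hepatocyte markers called were 5 higher in MOER and 8 lower in ERKO livers with quantile normalization. Signal over background limited Cyp1a1, which had no measurable change.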

Other observations

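The following genes of the P450 and haem lists were singled out after their values were seen. Cyp2b13, another CYP2B gene, averaged 834 ± 5.71 in MOER livers given PPT and 884 ± 6.75 with oil, 106 ± 0.08 in ERKO livers given PPT and 1078 ± 116 with oil, and 1041 ± 33.5 in WT livers given PPT and 3252 ± 92 with oil (SD, n = 2 arrays each). Its lowest group was thus ERKO livers given PPT, where Cyp2b10 had its lowest in WT livers given PPT. Alas1, the rate-limiting enzyme of haem synthesis, averaged 676 ± 13 in ERKO livers given PPT and 2443 ± 77.2 with oil (-1.83 ± 0.088, limma adjusted p = 2.3e-07), where the MOER difference was -0.07 ± 0.088 (adjusted p = 0.807) and the WT difference -0.28 ± 0.088 (adjusted p = 0.0305).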
